A study of Mus musculus with 38 samples.

Results

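The PanCK+ segments of Trail.mye mice were compared between a diet with DDC and a control diet. PanCK is an antibody stain for keratins of epithelial cells, which in the liver marks the cells of the bile ducts. The segments were chosen by their labels alone, as every PanCK+ segment of that genotype: 5 from DDC-fed and 4 from control diet-fed mice, that is, 9 of the 38 segments of the series, each read at 10547 genes. The mice of both groups lack Trail in myeloid cells (Trail fl/fl crossed with Lyz2-Cre, on C57BL/6 backgrounds), so that the deletion is shared by both diets and the driver acts in myeloid cells, not in bile duct cells. They were 6 to 8 weeks old and were fed 3 rounds of 5 days of control diet or of diet with 0.1% DDC, separated by 2 rounds of 3 days of chow, over 21 days, with the end on day 22. The 4 control segments came from regions of interest (ROIs) 26 to 29 and the 5 DDC segments from ROIs 32 to 36, all periportal, and values below are listed in that order. WT mice, fed the same 2 diets, gave 7 further PanCK+ segments (3 control, 4 DDC), and the 9 periportal ROIs of Trail.mye mice also gave an IBA1+ segment each, taken by a stain for macrophages. The sources used here do not tie a segment to a mouse, section or slide, and do not give the sex of each mouse. Several segments may come from 1 mouse, and p-values that treat segments as replicates are then too small for a statement on mice.

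DDC is a porphyrinogenic compound that blocks the last step of heme synthesis, and porphyrin plugs then obstruct small bile ducts. The duct epithelium answers such injury with the ductular reaction, in which cells with biliary keratins multiply, spread along the portal tract and take on a secretory state. Ductular reactive cells are known as a source of chemokines, proteases and matrix factors, while hepatocytes next to them, the cells that make plasma proteins, bile acids and most drug-metabolizing enzymes, often lose part of that programme.

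The 2 groups of segments differed in depth. Total counts were 35078, 37223, 37758 and 54834 in control segments and 319206, 172180, 282407, 836971 and 291784 in DDC segments. Every DDC segment lay above every control segment, with a difference of 3.02 in mean log2 total count (exact permutation test over 126 splits, two-sided p = 0.0159, the smallest such a design allows). The lowest value in the table is 1, and 19.7% to 41.5% of genes were at that floor in control segments against 0.578% or less in DDC segments. After Q3 normalization, which scales each segment to the same 75th percentile, 1 count was worth 2.10 to 3.50 in control segments and 0.131 to 0.700 in DDC segments, so that low levels on the control diet are coarse steps.

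The DDC segment of ROI 35 stood apart from the other 4. Its negative probe, a pool of sequences that match no mouse transcript, had 43.1 counts, against 3.06 to 4.78 in the other DDC segments and 1.25 to 1.42 in control segments. Only 19% of genes exceeded 2 times that background in ROI 35, compared with 75.6% to 90.6% in the other DDC segments. Its 50 most abundant genes held 7.10% of counts, against 15.5% to 17.7%. The IBA1+ segment of the same ROI had a negative probe count of 27.8. Counts of calls are therefore given with and without ROI 35.

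**Figure D1:**
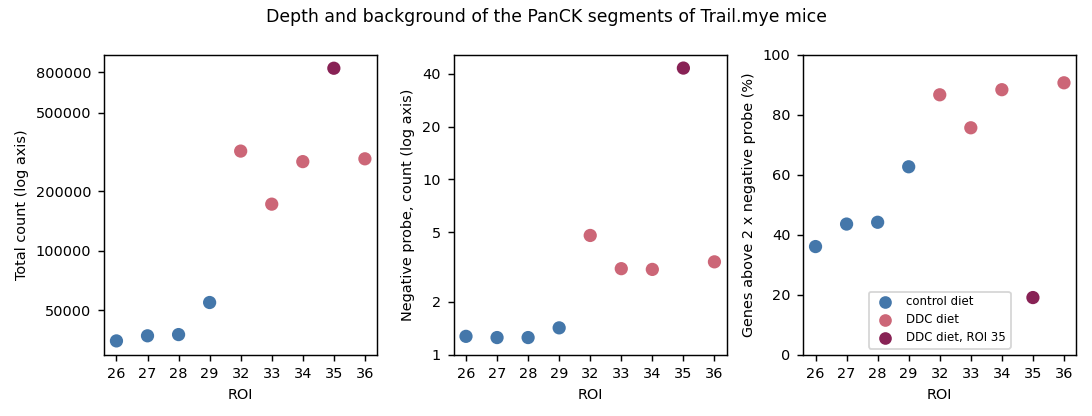
Total count, negative probe count (both on log axes) and the share of genes above 2 times the negative probe (%) in each of the 9 PanCK+ segments of Trail.mye mice, by ROI; each point is 1 segment. The DDC segment of ROI 35 has the highest total (836971), the highest negative probe (43.1 counts) and the lowest share (19%).

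The label of the segments was checked in the 9 ROIs that held both a PanCK+ and an IBA1+ segment. Epcam, an adhesion protein of epithelial cells, exceeded its IBA1+ level in 9 of 9 ROIs, by 3.14 ± 0.77 on the log2 scale of Q3-normalized counts (SD, n = 9 ROIs, exact sign permutation p = 0.00391, adjusted p = 0.00502 over 9 genes). Krt19 (2.61 ± 1.40), Krt7 (1.87 ± 0.85), Sox9 (2.21 ± 1.13) and Spp1 (4.27 ± 1.82) were also higher in 9 of 9 ROIs with the same p. The macrophage complement gene C1qa (-2.96 ± 0.64) and Clec4f, a lectin of Kupffer cells (-2.30 ± 1.79), were lower in 9 of 9. The segments were not free of hepatocyte RNA, since Alb, albumin, was at 6166, 2195, 2450 and 3790 on the control diet and at 1349, 1423, 2301, 603 and 1837 on the DDC diet. In segments of mixed tissue, fewer cells of a type and less RNA per cell cannot be told apart.

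Values given with SE are log2 fold changes of DDC over control segments unless another difference is named. Of 10547 genes, 151 were higher (1.43%) and 70 lower (0.664%) in DDC segments at an adjusted p under 0.05. Both shares are the background for the counts of list members given below. The lists were chosen with earlier results of these data known, so that such counts are no independent support. Without ROI 35, 402 genes were called (3.81%), of which 295 were higher (2.80%) and 107 lower (1.01%), and they held 149 of the 151 higher and 69 of the 70 lower genes. The balance of the directions moved with the scaling: 59 higher and 108 lower with TMM factors, 107 and 110 with library size only, and 35 and 99 with DESeq2, and the median log2 fold change over the 10547 genes moved from 0.18 to -0.06 with TMM factors and -0.15 with DESeq2. With all segments thinned to 23481 counts, 17 genes were higher and 35 lower. Of the 151 higher genes, 64 had a control mean under 3 counts, and none of the 70 lower genes did. Over all genes, the DDC segments lay entirely above the control segments for 603 (5.72%) and entirely below for 128 (1.21%). Among called genes, the groups did not overlap for 131 of the 151 higher and 52 of the 70 lower genes. A lack of overlap is therefore usual for a called gene and is no further support for it.

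Keratins Krt8 and Krt18 and 8 other genes listed for the ductular reaction rose on the DDC diet. Whether hepatocyte RNA in the segments has a part in the keratin values was not tested. Of 27 genes of a list for the ductular reaction, 10 were higher and none lower (13 higher without ROI 35, 7 with TMM factors), with a median log2 fold change of 1.25 against 0.18 over all genes. Krt8, a keratin of simple epithelia, was at 24.5, 65.7, 42 and 71.4 in control segments and at 236, 172, 271, 112 and 263 in DDC segments. The lowest DDC segment was ROI 35, and it still lay above the highest control, for a log2 fold change of 2.01 ± 0.34 SE, adjusted p = 1.6e-05. Its partner Krt18 went from 52.5, 28.9, 39.4 and 39.9 to 135, 95.9, 152, 74 and 171, again without overlap (1.66 ± 0.34 SE, adjusted p = 0.000705). Epcam went from 31.5, 34.1, 26.3 and 44.1 to 96.6, 75.6, 85.9, 51 and 102 (1.25 ± 0.34 SE, adjusted p = 0.0222). Its groups did not overlap either, but the call was lost with TMM factors (adjusted p = 0.139).

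Among the secreted and membrane proteins of that list, Mmp7, a matrix-degrading protease of injured ducts, had one of the largest rises. Its Q3-normalized counts were 3.5, 15.8, 18.4 and 14.7 in control and 169, 155.5, 51.6, 60.01 and 90.8 in DDC segments, for a log2 fold change of 2.93 ± 0.41 SE, adjusted p = 1.5e-07. Clu, the chaperone clusterin, was the most abundant of the 10, at 504, 234, 365 and 376 in control and 1676, 1601, 1575, 471 and 1324 in DDC segments. Of the DDC segments, ROI 35 alone lay below a control segment, and the log2 fold change was 1.85 ± 0.30 SE, adjusted p = 7.19e-06, or 2.07 without that segment. Cd24a, a glycoprotein of progenitor cells (1.57), S100a11, a calcium-binding protein (1.78), and the annexins Anxa2 (1.34) and Anxa3 (1.45) were also higher on the log2 scale, without overlap of the groups. The call of Anxa2 was lost in 13 of 24 alternatives.

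Of 10 marker genes of cholangiocytes, 3 were higher (Epcam, Cldn7 and Cdh1) and 7 did not pass the test, with a median of 0.93 and none called with TMM factors. Krt19, the usual stain for bile ducts, had 10.5, 55.1, 7.88 and 33.6 in control and 66.7, 45.5, 51.6, 36.9 and 50 in DDC segments, with a log2 fold change of 0.85 ± 0.35 SE, adjusted p = 0.263. Control segments differed widely, and ROI 27 was above 4 of the 5 DDC segments. Krt7 gave 0.86 ± 0.38 SE, adjusted p = 0.326. Spp1, osteopontin, was at 479.7, 441, 554 and 653 on the control and at 1318, 1134, 1096, 344 and 970.2 on the DDC diet, a log2 fold change of 0.87 ± 0.29 SE, adjusted p = 0.116, which became 1.08 (adjusted p = 0.000188) without ROI 35, the only DDC segment below the controls. The summed level of the 10 markers ran from 599 to 821 in control segments and, without ROI 35, from 1350 to 1690 in DDC segments (574 in ROI 35). Spp1 made up most of this sum, so that it says little on the other markers.

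Junction proteins, which seal the duct wall and anchor it to its basement membrane, had 8 of 29 genes higher and none lower (10 higher and 1 lower without ROI 35, 2 higher and 1 lower with TMM factors), with a median of 0.61. Cldn4, a tight junction claudin, had 1 or 2 counts in every control segment. Its Q3-normalized counts were 7, 2.63, 2.63 and 4.2 in control and 28.3, 27.3, 42.9, 21.3 and 39.9 in DDC segments, and the log2 fold change was 2.97 ± 0.49 SE, adjusted p = 7.23e-06, 3.10 without ROI 35. Cldn2, a claudin that forms cation pores, went from 3.5, 2.63, 7.88 and 6.3 to 33.9, 26.6, 35.6, 18.8 and 29.8 (2.43 ± 0.47 SE, adjusted p = 0.000256). The other 6 were Cldn3 (1.28), Cldn7 (1.41), F11r, a junction adhesion molecule (1.36), E-cadherin or Cdh1 (1.11), Itgb4, an integrin of hemidesmosomes (1.96), and Lama5, a laminin chain (1.41). The DDC segments lay above the control segments for each of these 8, as for 131 of the 151 higher genes. Cdh1 was the closest to the threshold (adjusted p = 0.0494). Its call was lost in 17 of 24 alternatives, and those of Cldn3 and Cldn7 in 13 of 24 each. Of 17 genes for bile duct transport and secretion, 2 were higher, the bicarbonate cotransporter Slc4a4 (1.98 ± 0.47 SE, adjusted p = 0.00585) and the chloride importer Slc12a2 (1.47 ± 0.43 SE, adjusted p = 0.0495). Of these, 1 was called with TMM factors (Slc4a4, near the threshold) and none after thinning, and the calls of Slc4a4 and Slc12a2 were lost in 6 and 15 of 23 alternatives.

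**Figure D2:**
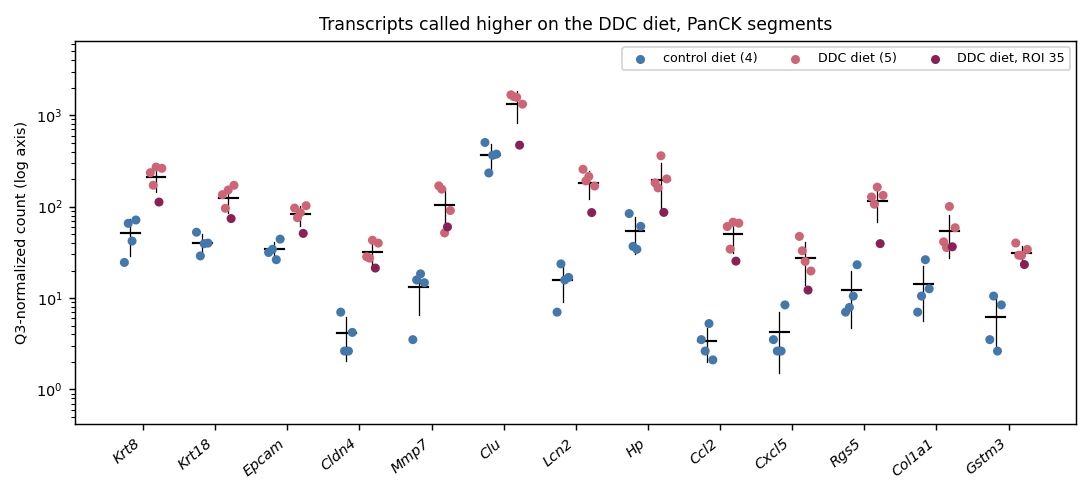
Q3-normalized counts (log axis) of 13 transcripts called higher on the DDC diet in PanCK+ segments of Trail.mye mice; each point is 1 segment, the horizontal bar is the mean and the vertical bar 1 SD (n = 4 control, n = 5 DDC). The DDC segments lie above the control segments for all but Clu, where ROI 35 falls below 1 control segment.

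Some genes of the acute phase and defence were higher too. Lcn2, lipocalin 2, binds bacterial siderophores and is a marker of injured epithelium. Its promoter is shown because Lcn2 had the smallest adjusted p among raised genes. The 300 bases from 250 before to 50 after the RefSeq start (GRCm38.p6, chr2:32387690-32387989, minus strand, printed 5′ to 3′ along the gene) hold 1 match to the C/EBP motif TTGCNNAA, in capitals, 216 bases before the start.

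Lcn2: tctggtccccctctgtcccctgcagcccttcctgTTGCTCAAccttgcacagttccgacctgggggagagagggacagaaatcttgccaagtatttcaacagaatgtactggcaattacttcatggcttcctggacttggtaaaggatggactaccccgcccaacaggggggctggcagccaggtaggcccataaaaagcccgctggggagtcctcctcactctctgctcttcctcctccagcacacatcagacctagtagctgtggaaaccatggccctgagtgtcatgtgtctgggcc

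That motif is in 10.8% of 32544 RefSeq promoter windows of this length, on either strand, and the letters of the NF-kB motif GGGANTTCC (1.69% of windows) and of the AP-1 motif TGANTCA (7.79%) are not in this window. Lcn2 was at 7, 23.6, 15.8 and 16.8 in control and 256, 191, 214, 86.1 and 168 in DDC segments. No segment overlapped, and the log2 fold change was 3.48 ± 0.40 SE, adjusted p = 7.3e-11, with 3.66 without ROI 35. Its call held in all 24 alternatives. Of 22 genes for the acute phase and defence, 4 were higher and none lower (6 without ROI 35, 3 with TMM factors), with a median of 0.58. Haptoglobin, Hp, which binds free hemoglobin, was at 84, 36.8, 34.1 and 60.9 on the control and at 182, 160.4, 361, 86.5 and 201 on the DDC diet (1.89 ± 0.35 SE, adjusted p = 9.41e-05). Saa1, serum amyloid A, was at 3.5, 5.25, 15.8 and 4.2 on the control and at 42, 28.7, 77.2, 13.3 and 16 on the DDC diet (2.25 ± 0.49 SE, adjusted p = 0.0019), with the DDC segment of ROI 35 below the control segment of ROI 28. Cfb, complement factor B, had 1 or 2 counts in control segments and a log2 fold change of 1.87 ± 0.49 SE, adjusted p = 0.0296, a call lost in 12 of 23 alternatives. The part of hepatocyte RNA in these values was not tested.

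Among chemokines and cytokines, 3 of 13 genes were higher and none lower, with a median of 1.46. Ccl2, which recruits monocytes, was at 3.5, 2.63, 5.25 and 2.1 in control segments, where it had 1 or 2 counts, and at 60.6, 34.3, 67.6, 25.3 and 66 in DDC segments, the largest called rise (3.90 ± 0.55 SE, adjusted p = 1.55e-07). Its DDC segments differed by more than 2-fold among themselves, yet the lowest was far above the highest control. Cxcl5, a neutrophil chemokine, was at 3.5, 2.63, 2.63 and 8.4 on the control and at 47.3, 32.9, 25.1, 12.2 and 19.8 on the DDC diet (2.51 ± 0.49 SE, adjusted p = 0.00031), with a wide spread on the DDC diet. S100a8, a calprotectin subunit that is abundant in neutrophils, was at 7, 2.63, 2.63 and 2.1 on the control and at 28.7, 14, 9.13, 6.83 and 11.8 on the DDC diet (1.96 ± 0.56 SE, adjusted p = 0.0356), and ROI 35 fell within the range of the controls. Its call was lost in 11 of 23 alternatives, and S100a9, the partner subunit, had a log2 fold change of 0.57 ± 0.37 SE, adjusted p = 0.617. Cxcl1, another neutrophil chemokine, was at 3.5, 2.63, 7.88 and 2.1 on the control and at 27.9, 16.8, 7.31, 7.22 and 3.78 on the DDC diet and was not called (1.53 ± 0.57 SE, adjusted p = 0.199). Only ROI 32 and ROI 33 of the DDC segments were above the highest control for Cxcl1. Cx3cl1, a membrane-bound chemokine, did not pass with all segments (1.71 ± 0.49 SE, adjusted p = 0.0599) and passed without ROI 35 (adjusted p = 0.0248). Tnf, at 1 count in all control segments, had 8.48, 4.9, 9.59, 8.01 and 5.46 in DDC segments and was not called (adjusted p = 0.224). Il1rn, the natural antagonist of the interleukin-1 receptor, was also at 1 count in every control segment and was called higher (adjusted p = 0.0042). The mean of its DDC segments was at least 1.79-fold a floor of 3 counts per control segment. This bound holds for the mean, not for each segment, and covers counting error only.

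Of 17 NF-kB targets and feedback genes, 3 were higher: Nfkbiz, a nuclear co-regulator (1.66 ± 0.44 SE, adjusted p = 0.0168), Relb, a subunit of the alternative pathway (1.58 ± 0.42 SE, adjusted p = 0.0193), and Vcam1, an adhesion molecule for leukocytes (1.56 ± 0.42 SE, adjusted p = 0.0202). None of the 3 was called with TMM factors. Over all genes, 1.43% were called higher, or 0.559% with TMM factors. Of 18 immediate early and heat shock genes, 2 were higher. Junb, an AP-1 subunit, was at 3.5, 2.63, 5.25 and 12.6 on the control and at 47.3, 43.4, 38.4, 21.9 and 50.8 on the DDC diet (2.60 ± 0.46 SE, adjusted p = 3.47e-05). Myc, a growth regulator, was at 1 count in all control segments, and its DDC mean was at least 1.20-fold the 3-count floor (adjusted p = 0.0393). Its call was lost without ROI 35 (adjusted p = 0.0655) and in 12 of 23 alternatives in all. Of 15 cell cycle genes only Tubb5, a tubulin (1.51 ± 0.42 SE, adjusted p = 0.0273), was called, and it also serves as a reference transcript. Other genes among the 12 highest were Gabrp, a subunit of an epithelial GABA receptor (2.61 ± 0.46 SE, adjusted p = 4.55e-05), and the predicted genes Gm3776 (2.99) and Gm609 (2.77).

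Of 30 matrix and protease genes, 4 were higher (Mmp7, Col1a1, Col1a2 and Sparc; 6 without ROI 35). Col1a1, a chain of fibrillar collagen, was at 7, 10.5, 26.3 and 12.6 on the control and at 41.2, 35.7, 100.5, 36.4 and 58.8 on the DDC diet (1.91 ± 0.40 SE, adjusted p = 0.00123). Sparc, a collagen-binding protein, was at 10.5, 13.1, 10.5 and 16.8 on the control and at 43.2, 42, 69.9, 34.1 and 68.5 on the DDC diet (1.97 ± 0.39 SE, adjusted p = 0.000318). Col3a1 was not called with all segments (1.15 ± 0.35 SE, adjusted p = 0.0628) and was called without ROI 35 (adjusted p = 0.00479). Rgs5, a signalling regulator best known in pericytes, was at 7, 7.88, 10.5 and 23.1 on the control and at 128, 106, 164, 39.4 and 133 on the DDC diet (3.13 ± 0.42 SE, adjusted p = 2.98e-08), the fourth largest rise of the genes whose groups did not overlap. Of the 10 fibroblast and stellate cell markers, Col1a1, Col1a2 and Rgs5 were higher, while Dcn (0.03), Acta2 (-0.18), Des (0.12) and Pdgfrb (-0.21) had log2 fold changes that did not pass. The summed level of these 10 was 94.5 to 158 in control and 209 to 518 in DDC segments. Whether stromal RNA in the segments has a part in the collagen values was not tested.

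Of 10 macrophage markers, the complement genes C1qb (1.76 ± 0.40 SE, adjusted p = 0.00365) and C1qc (1.496 ± 0.40 SE, adjusted p = 0.0189) were higher, and 8 were not called, with summed levels of 52.5 to 105 in control and 111 to 164 in DDC segments. The Kupffer cell genes Clec4f (-0.83) and Marco (-1.02) had log2 fold changes that did not pass. Lyz2, whose promoter drives the Cre, was at 1, 1, 1 and 2 counts in control and 12, 5, 12, 55 and 13 counts in DDC segments and was not called (0.75 ± 0.53 SE, adjusted p = 0.654). Among 5 neutrophil markers S100a8 alone was called, and the summed level was 18.4 to 35.0 in control and 37.0 to 73.5 in DDC segments. Of 9 endothelial markers, Fcgr2b, an Fc receptor of sinusoids, was higher (adjusted p = 0.0229) and Ehd3 was lower (-1.49 ± 0.35 SE, adjusted p = 0.00972). Fcgr2b was at 1 count in all control segments, and its DDC mean was at least 1.44-fold the 3-count floor. Summed levels overlapped for endothelial markers, at 36.8 to 63.0 and 42.4 to 67.1. The part of these cells in the chemokine and defence values was not tested. The antibody genes Igkc (-2.79) and Igha (-2.42) were called lower, but the control segment of ROI 29 held 51 and 52 counts of them against 1 to 7 in the other controls, and neither call held without it (adjusted p = 0.808 and 0.688).

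Of 25 genes for glutathione and NRF2, 3 were higher: Gstm3 at 3.5, 10.5, 2.63 and 8.4 on the control and at 40, 29.4, 29.2, 23.2 and 34 on the DDC diet (2.23 ± 0.41 SE, adjusted p = 0.000126), Gstm1 (1.61 ± 0.34 SE, adjusted p = 0.000978) and Gstp1 (1.44 ± 0.35 SE, adjusted p = 0.00657), all transferases that attach glutathione to electrophiles. Of 24 genes for heme, iron and metals, the metallothioneins Mt1 (1.58 ± 0.35 SE, adjusted p = 0.00245) and Mt2 (1.47 ± 0.36 SE, adjusted p = 0.00931) were higher. Alas1, which catalyses the first step of heme synthesis, was lower, at 49, 42, 34.1 and 67.2 in control and 23, 19.6, 22.8, 15 and 18.5 in DDC segments (-1.31 ± 0.29 SE, adjusted p = 0.00205). All DDC segments lay below all control segments for Alas1. In WT segments its mean was 16.3 on the control and 19.8 on the DDC diet. The groups overlapped for Gstm1, Gstp1, Mt1 and Mt2. Near-identical copies of Gstm and Gstp genes can share probe signal, so that these values are uncertain as to the copy.

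Mup13, Fabp1 and Cyp2c67, all genes of hepatocytes, had the largest falls. Fabp1, the fatty acid-binding protein of liver, had the second largest fall, and its promoter is shown as the counterpart to that of Lcn2. The 300 bases around its RefSeq start (GRCm38.p6, chr6:71199629-71199928, plus strand, printed 5′ to 3′ along the gene) hold, in capitals, 1 match each to the C/EBP motif TTGCNNAA, the HNF1 half-site GTTAAT and the TATA box TATAAA, at 174, 107 and 30 bases before the start.

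Fabp1: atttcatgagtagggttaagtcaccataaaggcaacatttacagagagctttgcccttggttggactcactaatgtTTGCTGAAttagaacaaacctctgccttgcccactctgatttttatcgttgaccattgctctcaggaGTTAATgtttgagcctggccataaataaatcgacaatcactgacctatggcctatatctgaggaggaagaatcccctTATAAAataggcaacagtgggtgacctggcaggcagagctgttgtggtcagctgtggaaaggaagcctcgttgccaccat

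The HNF1 half-site is in 7.13% and the TATA box in 13.6% of the promoter windows on either strand, and neither is in the Lcn2 window, while the C/EBP motif is in both. Fabp1 was at 431, 186, 247 and 277 in control and 17, 25.9, 18.3, 10.6 and 17.2 in DDC segments, and all DDC segments were far below all controls (-4.03 ± 0.32 SE, adjusted p = 3.95e-19). Mup13, a major urinary protein, had the largest fall, from 798, 643, 995 and 887 to 30.7, 18.9, 11.9, 8.54 and 9.66 (-5.73 ± 0.35 SE, adjusted p = 3.9e-27). The Mup genes are near-identical copies, so that the probe may read several of them.

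Of 10 hepatocyte markers, 3 were lower (Fabp1, Cyp2e1 and Alb) and none higher, with a median of -0.75. The summed level was 3140 to 8170 in control and 1030 to 3560 in DDC segments, and Alb made up most of it. The fall was uneven: the urea cycle enzyme Cps1 (0.05) and apolipoprotein Apob (0.40) had log2 fold changes that did not pass, and Alb gave -1.28 ± 0.28 SE, adjusted p = 0.00225 with overlapping groups. Of 25 plasma protein genes, 4 were lower: Alb, the lipoprotein Apoa2 (-1.37), plasminogen or Plg (-1.01) and Serpina3k, a protease inhibitor (-2.12 ± 0.30 SE, adjusted p = 2.12e-07). Serpina3k was at 546, 244, 236 and 403 on the control and at 98.6, 89.6, 106, 36.6 and 81.9 on the DDC diet, without overlap. The call of Plg was lost in 14 of 24 alternatives. Among 26 genes for the urea cycle and amino acids, none was called in either direction, and Cth alone was called higher without ROI 35.

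Of 30 genes of a list of cytochrome P450 enzymes, 3 were lower and none higher (5 lower without ROI 35), with a median of -0.49. The list leaves out Cyp2a4 and Cyp3a41a, which were lower and are given with the female-biased genes, and Cyp2j6, which was higher (1.36 ± 0.40 SE, adjusted p = 0.047) and is named after its value was seen. Cyp2c67 was at 102, 36.8, 60.4 and 46.2 on the control and at 7.27, 7.7, 4.57, 6.43 and 7.14 on the DDC diet (-3.15 ± 0.28 SE, adjusted p = 2.41e-16). Cyp2e1, which oxidizes ethanol and small solvents, was at 91, 84, 94.5 and 155.5 on the control and at 16.6, 16.1, 13.7, 19.2 and 23.1 on the DDC diet (-2.58 ± 0.29 SE, adjusted p = 3.21e-11). Cyp4a14, a fatty acid hydroxylase, was at 17.5, 23.6, 23.6 and 12.6 on the control and at 4.85, 4.2, 0.913, 5.25 and 4.2 on the DDC diet (-2.17 ± 0.34 SE, adjusted p = 2.38e-06). The groups did not overlap for any of the 3. In WT segments, mean levels on the control and DDC diets were 12.8 and 8.34 for Cyp2c67, 52.5 and 31.4 for Cyp2e1, and 10.5 and 6.36 for Cyp4a14. Other enzymes among the 12 lowest were Inmt, a methyltransferase (-2.50), the sulfotransferase Sult2a8 (-2.35) and D2hgdh, a dehydrogenase of mitochondria (-2.24).

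Lipid genes had 4 of 30 lower and none higher, with a median of -0.53. Beside Fabp1, Scd1, which desaturates fatty acids, was at 189, 76.2, 102 and 111 on the control and at 25.4, 22.4, 35.6, 16.7 and 34.9 on the DDC diet (-2.14 ± 0.31 SE, adjusted p = 2.68e-07). Lpin1, a phosphatidate phosphatase, gave -1.72 ± 0.31 SE, adjusted p = 0.000126, and Thrsp, a lipogenic regulator outside the list, was at 59.5, 36.8, 23.6 and 37.8 on the control and at 5.66, 6.3, 4.11, 9.45 and 2.94 on the DDC diet (-2.55 ± 0.28 SE, adjusted p = 6.69e-12). Of 17 transporters, the basolateral bile acid importer Slc10a1 was lower (52.5, 7.88, 28.9 and 31.5 against 6.46, 7, 8.68, 8.4 and 8.82, -1.85 ± 0.32 SE, adjusted p = 2.55e-05), as was the anion importer Slco1b2 (-1.64 ± 0.33 SE, adjusted p = 0.000511). Control ROI 27 had 3 counts of Slc10a1 and fell within the DDC range. Of 14 genes of bile acid synthesis only Slc27a5, which activates bile acids for conjugation, was called (-1.002 ± 0.30 SE, adjusted p = 0.0489). That call was lost in 15 of 24 alternatives.

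**Figure D3:**
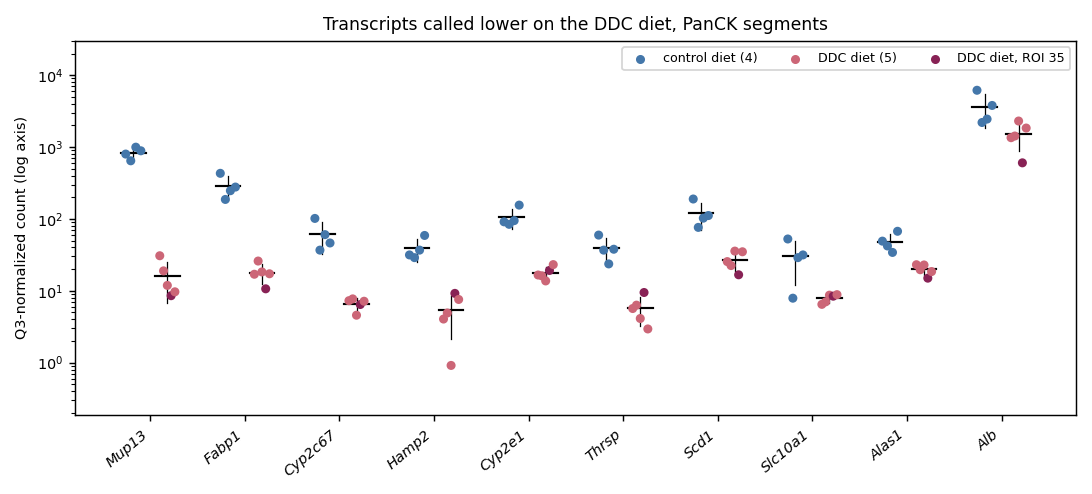
Q3-normalized counts (log axis) of 10 transcripts called lower on the DDC diet in PanCK+ segments of Trail.mye mice; each point is 1 segment, the horizontal bar is the mean and the vertical bar 1 SD (n = 4 control, n = 5 DDC). The DDC segments lie below the control segments for all but Slc10a1 and Alb.

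Genes with a known sex bias in mouse liver moved with the diet groups. Of 15 female-biased genes, 7 were lower and none higher (8 without ROI 35, 8 with TMM factors), with a median of -1.18 and summed levels of 215 to 326 in control and 88.1 to 118 in DDC segments, which did not overlap. Among them were Hamp2, a hepcidin (31.5, 28.9, 36.8 and 58.8 against 4.04, 4.9, 0.913, 9.19 and 7.56, -2.68 ± 0.28 SE, adjusted p = 1.9e-12), Cyp2a4 (-1.18), Cyp3a41a (-1.42), Fmo2 (-1.29), the prolactin receptor Prlr (-1.58) and Sult2a1 (-1.53). In WT segments, mean levels on the control and DDC diets were 4.67 and 2.33 for Hamp2, 4.67 and 9.34 for Cyp2a4, and 7.59 and 8.76 for Cyp3a41a. The Trail.mye control means of these genes were higher, at 39, 60 and 41.1. Hamp2 was at the floor of 1 count in every WT segment of both diets, and Cyp2a4 in every WT control segment. Those WT values are thus the scaled worth of 1 count. Fmo2 went from 22.2 to 7.89 in WT segments. Of 11 male-biased genes, Mup13 and Car3, a carbonic anhydrase (-1.70), were lower and Gstp1 was higher. The 11 had a median of -0.91, and their summed levels were 756 to 1070 in control and 119 to 196 in DDC segments, also without overlap. Mup13 made up most of the control sums. The Y-linked target Gm21783 was at 1, 1, 1 and 3 counts in control and 151, 85, 104, 168 and 108 counts in DDC segments (3.53 ± 0.52 SE, adjusted p = 3.41e-07), with no overlap. The Y-linked Gm20815 (2.18 ± 0.57 SE, adjusted p = 0.0179) and Gm21828 (1.88 ± 0.54 SE, adjusted p = 0.0408) were higher too, and these 3 belong to multi-copy families whose probes can read several copies. The diet calls of Gm20815 and Gm21828 were lost in 12 and 13 of 24 alternatives. The single-copy Y genes were not called: Ddx3y at 1, 2, 1 and 1 counts in control and 19, 7, 18, 58 and 20 in DDC segments (1.17 ± 0.49 SE, adjusted p = 0.378), Eif2s3y at 1, 2, 2 and 1 on the control and at 20, 8, 23, 74 and 21 on the DDC diet (1.15 ± 0.47 SE, adjusted p = 0.308), and Uty at 1, 2, 1 and 3 on the control and at 12, 5, 9, 51 and 6 on the DDC diet (0.01 ± 0.47 SE, adjusted p = 1). The mice are described as matched by sex, and the part of sex in these values was not tested.

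Several programmes had no called gene with all segments. Over all 10547 genes 2.1% were called, so that a list of this size often has no call. None of 22 genes for death receptors and apoptosis was called (median 0.31). Tnfrsf10b, the death receptor for TRAIL, was at 3.5, 7.88, 5.25 and 6.3 in control and 8.08, 7, 4.11, 9.72 and 5.46 in DDC segments, with overlapping groups (0.31 ± 0.44 SE, adjusted p = 0.9). Notch (8 genes, median 0.29), hepatocyte and biliary transcription factors (25 genes, 0.10), TGF-beta, PDGF and CCN factors (21 genes, 0.26), antigen presentation and interferon (21 genes, 0.16) and endoplasmic reticulum stress (12 genes, 0.44) also had none. The last 3 had 1 gene each called higher without ROI 35. Among 14 reference transcripts, which are often taken as constant, Actb (1.43 ± 0.33 SE, adjusted p = 0.00303) and Tubb5 were higher.

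**Figure D4:**
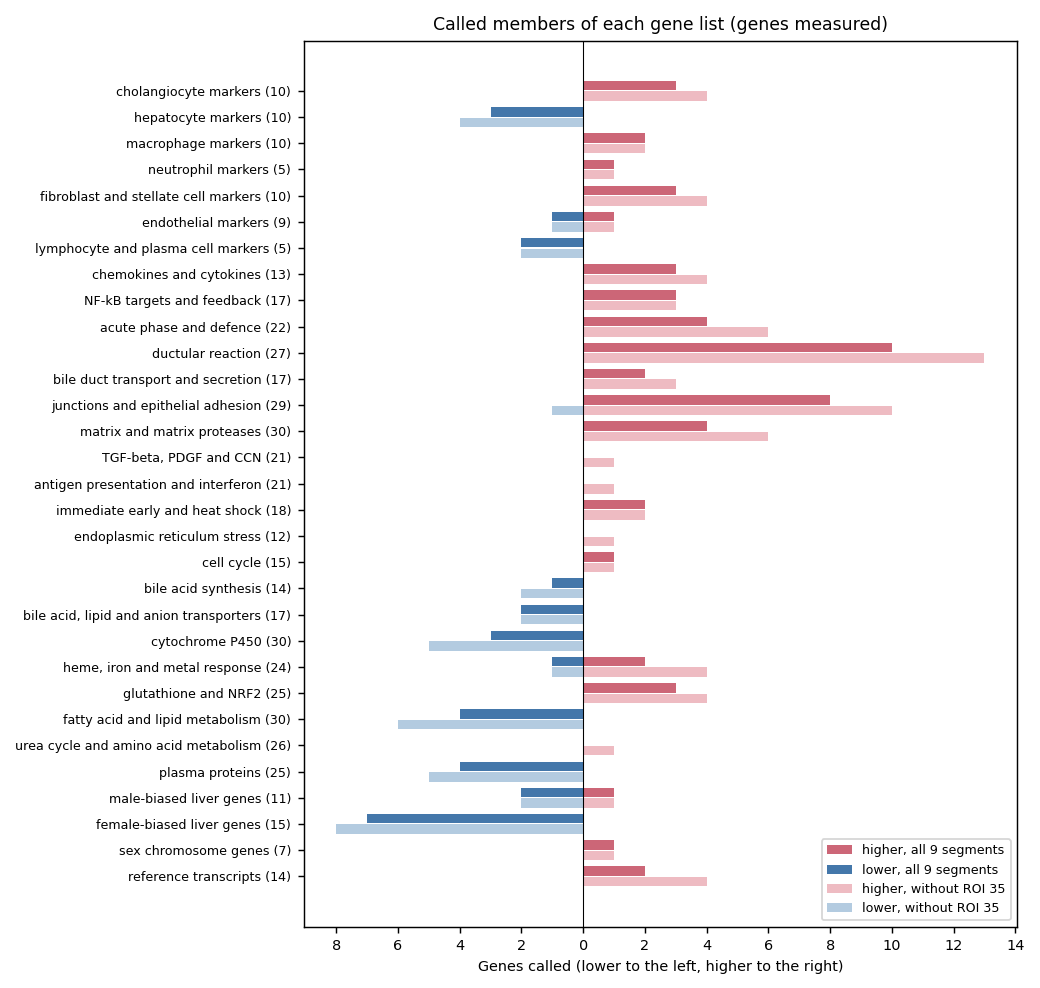
Number of genes of each list called higher (right) or lower (left) on the DDC diet in PanCK+ segments of Trail.mye mice, with all 9 segments (dark bars) and without ROI 35 (light bars); the genes measured are in parentheses, and lists with no call in either fit are left out. The ductular reaction list has the most raised genes (10 of 27) and the female-biased list the most lowered (7 of 15). Lists differ in size and were chosen with earlier results of these data known, so that their order is no test.

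Total counts of the PanCK+ segments of WT mice were 29510, 23481 and 24303 on the control and 50851, 49877, 46676 and 61665 on the DDC diet. They lay below the totals of Trail.mye segments on the same diet, and depth differed less between the diets. In WT control segments, 53.6% to 67.2% of genes were at the floor of 1 count. Depth thus differed with genotype as well as with diet. Whether the diet difference itself depended on genotype was tested as an interaction in the 16 PanCK+ segments. Its values are given as the log2 fold change in Trail.mye minus that in WT segments. It was called for 12 of 10547 genes (0.114%), 11 with a higher log2 fold change in Trail.mye than in WT mice and Dbp with a lower one. Of the 11, 7 fell in WT segments and were not called in Trail.mye segments. Bhmt, which remethylates homocysteine, was at 126, 105 and 94.5 in control and 19.8, 18.9, 13.1 and 10.5 in DDC segments of WT mice, and at 45.5, 31.5, 15.8 and 35.7 on the control and at 49.7, 51.8, 71.2, 26.8 and 46.2 on the DDC diet in those of Trail.mye mice. Its log2 fold change was -2.83 in WT and 0.62 in Trail.mye segments, an interaction of 3.45 ± 0.54 SE, adjusted p = 2.95e-05. The WT controls had the highest levels of the 4 groups. Scp2, a sterol carrier (2.38 ± 0.52 SE, adjusted p = 0.0149), Aox3, an aldehyde oxidase (3.28 ± 0.69 SE, adjusted p = 0.00919), Cyp2d10 (2.27 ± 0.53 SE, adjusted p = 0.0406), Nudt7, a peroxisomal hydrolase of coenzyme A (2.55 ± 0.60 SE, adjusted p = 0.0441), and Klrg2 (3.37 ± 0.67 SE, adjusted p = 0.00777) were 5 more of these, and the seventh was the X-linked, multi-copy Srsx (3.57 ± 0.70 SE, adjusted p = 0.00359).

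Gstp1 rose in Trail.mye segments (1.44) and had -0.79 in WT segments (2.23 ± 0.50 SE, adjusted p = 0.0196). The Y-linked targets Gm21783 (4.46 ± 0.65 SE, adjusted p = 5.56e-06), Gm20815 (3.87 ± 0.73 SE, adjusted p = 0.00148) and Gm21828 (3.71 ± 0.70 SE, adjusted p = 0.00148) were among the 12, and Gm20815 and Gm21828 rose in Trail.mye and fell in WT segments. Gm21783 had 28, 24 and 20 counts in WT control and 35, 24, 15 and 27 in WT DDC segments, so that the Trail.mye control segments alone were at the floor. Dbp, a transcription factor of the circadian clock, was at 3.5, 5.25 and 5.25 on the control and at 34.6, 12.6, 13.1 and 23.1 on the DDC diet in WT and at 24.5, 44.6, 31.5 and 35.7 on the control and at 14.9, 14.7, 13.2, 12.6 and 12.6 on the DDC diet in Trail.mye segments (-3.51 ± 0.72 SE, adjusted p = 0.00754). By diet alone it fell in Trail.mye segments (-1.35 ± 0.29 SE, adjusted p = 0.00132), and as the WT controls were at 1 count each, the fitted value for WT is no bound. Bhmt and Gm21783 were called in all 25 alternatives and the other 10 lost the call in at least 2. TMM factors called 5 genes up and 4 down, while DESeq2 and thinning called 2 each.

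In the 9 periportal ROIs of Trail.mye mice, the diet difference was compared between PanCK+ and IBA1+ segments, and the last value given for each gene is the log2 fold change in PanCK+ minus that in IBA1+ segments. Without a term for the ROI, 28 of 10547 genes differed (0.265%), 15 with a higher and 13 with a lower log2 fold change in PanCK+ segments. The split was 8 and 19 with TMM factors, 7 and 26 with library size only, 0 and 13 with DESeq2 and 0 and 9 after thinning. With the ROI as a block, which pairs the 2 segments of 1 piece of tissue, 172 genes were called (137 and 35), and they held all 28. Spp1 had the largest difference of the 12 genes named here. It was at 8.75, 3.94, 7.22 and 11.8 in control and 183, 187, 164, 50.1 and 140.3 in DDC segments of the IBA1+ class, a log2 fold change of 4.19 against 0.87 in PanCK+ segments (-3.32 ± 0.59 SE, adjusted p = 0.00121). The IBA1+ segments thus started from a level far below that of PanCK+ segments.

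Bgn, Fbln1, Timp3 and Gas6 were called higher in IBA1+ segments and were not called in PanCK+ segments. Bgn, a matrix proteoglycan, had 2.03 in IBA1+ and -0.45 in PanCK+ segments (-2.48 ± 0.45 SE, adjusted p = 0.00121). Fbln1, a fibulin (-2.74 ± 0.53 SE, adjusted p = 0.00327), Timp3, a protease inhibitor of the matrix (-2.16 ± 0.46 SE, adjusted p = 0.00722), and Gas6, a ligand for TAM receptors (-2.26 ± 0.45 SE, adjusted p = 0.00371), had the same signs. Fmo2 rose in IBA1+ (1.14) and fell in PanCK+ segments (-1.29), a difference of -2.43 ± 0.45 SE, adjusted p = 0.00121. Gsn, an actin-severing protein, fell in PanCK+ segments (-2.04 ± 0.32 SE, adjusted p = 2.71e-06) and had 0.05 in IBA1+ segments (-2.09 ± 0.45 SE, adjusted p = 0.00722).

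In the other direction, Cd44, a hyaluronan receptor, was at 3.5, 5.25, 15.8 and 4.2 on the control and at 42.8, 37.1, 51.1, 31.9 and 59.2 on the DDC diet in PanCK+ segments (2.60 ± 0.43 SE, adjusted p = 7.23e-06), and at 14, 19.7, 17.7 and 14.4 on the control and at 12.4, 17.8, 18.4, 13.3 and 19.5 on the DDC diet in IBA1+ segments, whose groups overlapped (2.67 ± 0.53 SE, adjusted p = 0.00353). Rgs5 rose in PanCK+ segments and had 0.56 in IBA1+ segments (2.57 ± 0.55 SE, adjusted p = 0.00722). The Kupffer cell gene Clec4f fell from 121, 105, 142 and 72.2 to 11.7, 9.7, 3.94, 6.74 and 14.3 in IBA1+ segments (-3.63), while PanCK+ segments were low on both diets, at 14, 7.88, 10.5 and 2.1 on the control and at 5.25, 7, 3.65, 4.73 and 2.1 on the DDC diet (2.79 ± 0.56 SE, adjusted p = 0.00371). Fcna, a ficolin of Kupffer cells (2.49 ± 0.53 SE, adjusted p = 0.00722), and Fasn, fatty acid synthase (2.15 ± 0.44 SE, adjusted p = 0.00457), likewise fell in IBA1+ segments. A smaller fall from a level near the floor cannot be told apart from a lack of change.

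**Figure D5:**
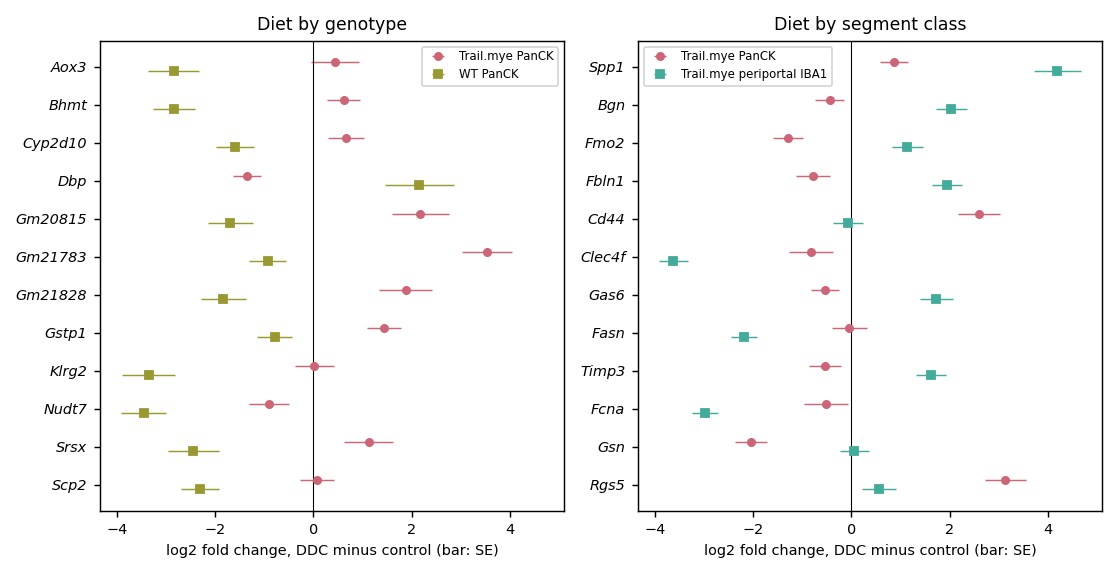
Log2 fold change (DDC minus control, with its standard error) of 12 genes called for the diet by genotype interaction (left; circles, Trail.mye PanCK+ segments; squares, WT PanCK+ segments) and of 12 genes for the diet by segment class interaction (right; squares, periportal IBA1+ segments of Trail.mye mice). Dbp is the only gene on the left whose WT value lies above its Trail.mye value.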

How the data were processed

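Formalin-fixed liver sections were profiled with the GeoMx Digital Spatial Profiler and whole transcriptome probes. Probe barcodes were released by light from each segment, amplified for 18 cycles and sequenced by the authors. The expected counts are the authors' values per target and segment as deposited, limited to targets above the limit of quantification in over 10% of ROIs; 3 genes were not whole and were rounded. The Q3-normalized signal is the authors' as deposited and equals these counts times 1 factor per segment. The submitters' processing notes name bcl2fastq and mm10, and the study's methods add quality control of the reads; no aligner is named in the sources used here.

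Counts of 10547 genes, with the negative probe left out, were fitted by quasi-likelihood in edgeR 4.0.16 under R 4.3.3 (upper-quartile factors at the 75th percentile) in 1 model of the 4 PanCK+ groups (12 residual degrees of freedom), or of the 4 groups of the 9 Trail.mye periportal ROIs (14, or 7 with the ROI as a block). Tests were two-sided with Benjamini-Hochberg adjustment over all genes, and a call is an adjusted p under 0.05. Every adjusted p of a gene comes from this test unless another is named. Log2 fold changes are DDC minus control, and interactions are the Trail.mye minus the WT, or the PanCK+ minus the IBA1+, difference. Their SE was derived from the test, as the absolute log2 fold change divided by the square root of the quasi-likelihood F statistic. The edgeR fit of the diet contrast was tested on simulated counts, and the interaction fits were not. Alternatives were TMM factors, library size only, DESeq2 1.42.0, limma 3.58.1 on log2(Q3-normalized count + 1) or + 0.5, filterByExpr, counts of 1 set to 0, thinning, other sets of segments, the volcano thresholds and the two-group test of the methods, and each segment left out. Subtracting the negative probe, and fits with another setting and without ROI 35, were chosen after seeing the data.

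The members, gene lists, tests and the rule for named genes were chosen with earlier results of these data known. Named genes are the 12 highest and 12 lowest called genes whose groups do not overlap, called members and leading members of each list, genes the study names for the spatial data, up to 12 genes per interaction, and allele and sex chromosome genes; others are named as added. Trail itself was not analysed here, and a few genes are not reported here. The 2 segments of an ROI share tissue; the correlation of their deviations across 8712 genes was 0.004 to 0.042 in control and 0.063 to 0.609 in DDC ROIs, highest in ROI 35. Of the genes, 10512 match a RefSeq symbol, and promoter sequences are from RefSeq (GRCm38.p6). Python 3.11.15 and matplotlib 3.10.9 drew the plots.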

Additional observations from a re-analysis of the deposited data

Results flagged for a closer look

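In 212 sets of 4 or 5 segments, 19 had a segment farther from the others than Dixon's limit, and chance gives about 1 in 20. The negative probe had 43.1 counts in ROI 35 on the DDC diet and 1.42 counts in ROI 29 on the control diet, and the total count 836971 and 54834 in the same segments. In control segments, Q3-normalized counts stood apart for Cd44 (15.8) and Saa1 (15.8) in ROI 28, Cxcl5 (8.4), Cyp2e1 (155), Igkc (107), Igha (109) and Actg1 (88.2) in ROI 29, S100a8 (7.00), Plg (80.5) and Myh9 (35.0) in ROI 26, and Mt1 (42) in ROI 27. In DDC segments they did for Mt2 (27.7) in ROI 35, Tubb5 (29.7) and Cyp4a14 (0.913) in ROI 34, and Igha (13.4) in ROI 36.

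The diet difference itself differed between genotypes, by the test of the interaction, for Gm21783 (4.46), Gm20815 (3.87), Gm21828 (3.71), Srsx (3.57), Bhmt (3.45), Klrg2 (3.37), Aox3 (3.28), Nudt7 (2.55), Scp2 (2.38), Cyp2d10 (2.27), Gstp1 (2.23) and Dbp (-3.51). It differed between segment classes for Clec4f (2.79), Cd44 (2.67), Rgs5 (2.57), Fcna (2.49), Fasn (2.15), Gsn (-2.09), Timp3 (-2.16), Gas6 (-2.26), Fmo2 (-2.43), Bgn (-2.48), Fbln1 (-2.74) and Spp1 (-3.32). Values are differences of log2 fold changes.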

How the results depend on the processing

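The diet called 221 genes in PanCK+ segments of Trail.mye mice. The two-group test of the methods called 152 (131 higher, 21 lower; 69 shared with the 221). DESeq2 called 134, thinning to 1 total 52, the volcano thresholds (unadjusted) 783, TMM factors without ROI 35 349 and thinning without ROI 35 100. Leaving out 1 segment gave 114 to 402: 142, 140, 118 and 114 without control ROIs 26, 27, 28 and 29, and 402 without ROI 35. The interaction with genotype (12 genes) gave 2 with DESeq2, 2 with thinning, 26 and 24 with limma and 1 or 0.5 added, 24 with the negative probe subtracted, and 6 to 14 with 1 segment left out (6 without ROI 28 and 7 without ROI 9 of WT mice). The interaction with segment class (28 genes) gave 13 with DESeq2, 17 with limma and 0.5 added, 71 with counts of 1 set to 0, 9 with thinning, 85 with the negative probe subtracted, 172 with the replicate block by ROI, 61 without both segments of ROI 35 and 177 with both changes. With 1 segment left out it gave 9 to 53 (14 without ROI 28, 9 without ROI 29 and 53 without ROI 35 of the PanCK+ class). The difference in log2 total count ran from 2.68 to 3.25 with 1 segment left out. The cause of these shifts was not tested.

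For values of 128 single genes, 6 of 3125 alternatives turned the sign: thinning for Nfkbiz (-0.09) and Krt7 (-0.29), leaving out control ROI 29 for Igha (range -2.79 to 1.14 over single segments left out), and for Tnfrsf10b DESeq2 (-0.06), TMM factors without ROI 35 (-0.12) and DESeq2 without ROI 35 (-0.18). A call was lost in 592 and gained in 21. Depth limits the control segments most, where 1 count is a large step.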

Other observations

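The following genes were picked from the called genes after their values were seen, so that they stand for single genes and not for a tested group. Flna, which crosslinks actin, was at 10.5, 5.25, 15.8 and 6.3 in control and 38.8, 30.1, 67.6, 28.6 and 56.3 in DDC segments (2.24 ± 0.42 SE, adjusted p = 0.000124). Vasp, which promotes filament growth, gave 1.98 ± 0.50 SE, adjusted p = 0.0173, and Tpm4, a tropomyosin, gave 1.88 ± 0.42 SE, adjusted p = 0.00287. Msn, which links actin to the membrane (1.79 ± 0.45 SE, adjusted p = 0.0103), the myosin heavy chain Myh9 (1.39 ± 0.36 SE, adjusted p = 0.014) and the actin gene Actg1 (1.37 ± 0.32 SE, adjusted p = 0.00372) were higher too.

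The histone gene H3c1 was at 10.5, 34.1, 18.4 and 21 on the control and at 109.9, 66.5, 138, 45.8 and 91.2 on the DDC diet (2.06 ± 0.39 SE, adjusted p = 0.000166), and of other histone genes H2ac10 gave 2.09 ± 0.43 SE, adjusted p = 0.000838, H2bc11 gave 1.78 ± 0.38 SE, adjusted p = 0.00163 and H2bc8 gave 1.78 ± 0.43 SE, adjusted p = 0.00754. H1f5 was at 1 count in all control segments, and its DDC mean was at least 1.24-fold the 3-count floor. It was called higher (adjusted p = 0.0408), a call lost in 13 of 23 alternatives. Histone genes of 1 class are near-identical, so that the probe signal is uncertain as to the copy. Among genes called lower, Nr1d1, a repressor of the circadian clock, was at 28, 28.9, 15.8 and 31.5 on the control and at 8.08, 12.6, 10.1, 12.2 and 9.24 on the DDC diet (-1.30 ± 0.29 SE, adjusted p = 0.00234), and Tsc22d3, a glucocorticoid-induced gene, gave -1.33 ± 0.30 SE, adjusted p = 0.00234. The sources used here do not give the hour of killing.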
